A study of Mus musculus with 12 samples.

Results

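The 48 genes described here encode the DNA replication machinery and the proteins that bring a cell into S phase, the part of the cell cycle in which the genome is copied. They were taken as the rows of the count table whose symbol equalled a name on a list of replication and S phase genes, and all 48 were found among the 21247 genes of the table. RNA-seq of periocular (eye-skin) biopsies compared 4 libraries labelled ft/ft with 4 libraries labelled ft/ftMyD88-/-. Both groups were BALB/c mice with the ft/ft genotype, a spontaneous point mutation that inactivates filaggrin (*Flg*), which packs keratin in the cornified layer, on a stock from which the matted (ma) mutation of *Tmem79* had been removed. The ft/ftMyD88-/- mice came from an in-house cross with MyD88 knockout mice and lacked, in all cells and not only in the epidermis, MyD88, the adaptor through which IL-1 and toll-like receptors signal. All mice were described as females of 6 weeks. WT libraries were not analysed here, so no value below is set against skin with intact filaggrin. Each library held a whole biopsy, and more cells in S phase and more RNA per cell cannot be told apart.

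Total counts were 18941705 to 29255129 in ft/ft libraries, against 15802957 to 27037997 in ft/ftMyD88-/- libraries (two-sided exact permutation test, p = 0.457, where the smallest p the design allows is 0.0286). Levels are given as CPM, counts that edgeR scales by library size and TMM factor, and a library with 0 counts of a gene could hold up to 3 counts, or 0.102 to 0.183 CPM, where counting error alone is considered. *Myd88* itself did not fall (30.7 ± 4.74 CPM in ft/ft and 41.2 ± 7.29 CPM in ft/ftMyD88-/-, SD, with 4 libraries each; log2 fold change 0.42, edgeR adjusted p = 0.0484). Gene counts do not show whether a deleted exon was covered, so this does not check the knockout. The female transcript *Xist* stood at 0 to 0.0429 CPM in the ft/ft libraries and at 34.6 to 66.8 CPM in the ft/ftMyD88-/- libraries, whereas the Y-linked *Ddx3y* stood at 54.2 to 73.2 CPM and at 0 to 0.482 CPM. The libraries labelled ft/ft therefore carried male transcripts against their description. Sex and genotype cannot be told apart below. *Tmem79* was also lower in ft/ftMyD88-/- (59.2 ± 2.92 against 16.4 ± 2.10 CPM, log2 fold change -1.85). *Flg* did not pass, with overlapping groups (103 ± 69.8 CPM in ft/ft and 242 ± 39.5 CPM in ft/ftMyD88-/-, log2 fold change 1.22, edgeR adjusted p = 0.120).

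DNA replication begins with licensing, in which the origin recognition complex (ORC), CDC6 and CDT1 load the ring-shaped MCM helicase onto replication origins. At the start of S phase CDC45 and the GINS complex turn the helicase into its active form, primase and polymerase alpha lay down the first bases of each strand, and polymerases epsilon and delta extend them while held on the DNA by the sliding clamp PCNA. Many of these genes are transcribed by E2F factors once cyclin-dependent kinases have released E2F from the retinoblastoma protein. In skin, cells in S phase lie mainly in the basal epidermis, the growing hair follicle and the outer layer of the sebaceous gland, next to dividing immune cells.

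Most replication genes were higher in ft/ftMyD88-/- skin than in ft/ft skin. Of the 48 genes 38 passed an edgeR adjusted p of 0.05 with a higher level, 0 with a lower level, and 10 did not pass, which is 79.2% of the list against 10.9% of all 20454 genes tested. At an unadjusted p under 0.05, 43 were higher and again 0 lower. The share of all genes at an unadjusted p is not given here, so no count at that threshold has a background. The median log2 fold change of the 48 was 0.57, from -0.096 (*Rpa1*) to 1.54 (*Orc1*), against 0.013 over all genes tested. Most of the changes were small, and 6 of the 48 reached both the threshold and a log2 fold change of at least 1, as did 3.68% of all genes tested. These were *Orc1* (1.54), *Mcm10* (1.35), *Gins1* (1.15), *Clspn* (1.07), *Cdc6* (1.05) and *Uhrf1* (1.01). When library size alone was used for scaling, calls over all genes shifted from 2239 higher and 2525 lower to 4638 higher and 1326 lower, the median over all genes rose to 0.19 and 46 of the 48 genes were called higher. Relative to the median of all genes, the median of the 48 was 0.56 under either scaling. A change of scaling moves all genes by nearly the same amount, so this agreement was fixed beforehand and does not test the scaling.

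The increase was seen in each ft/ftMyD88-/- library. Summed over the 48 genes, the level was 940, 1006, 965 and 959 CPM in ft/ft libraries 1 to 4 and 1300, 1391, 1240 and 1499 CPM in ft/ftMyD88-/- libraries 1 to 4, so that the groups did not overlap. Every ft/ftMyD88-/- library lay above every ft/ft library for 38 of the 48 genes, as for 12.5% of all genes tested. On this TMM scale *Rpa1* was the only gene with every ft/ftMyD88-/- library below every ft/ft library (14.2% of all genes tested), and the groups overlapped for the other 9. Replicates of a group were close, with a median SD of 9.06% of the mean in ft/ft and 10.9% in ft/ftMyD88-/-. Within ft/ftMyD88-/-, replicate 4 was the highest of its group for 27 genes and replicate 3 the lowest for 25. Within ft/ft, replicate 2 was the highest for 22 genes.

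**Figure D1:**
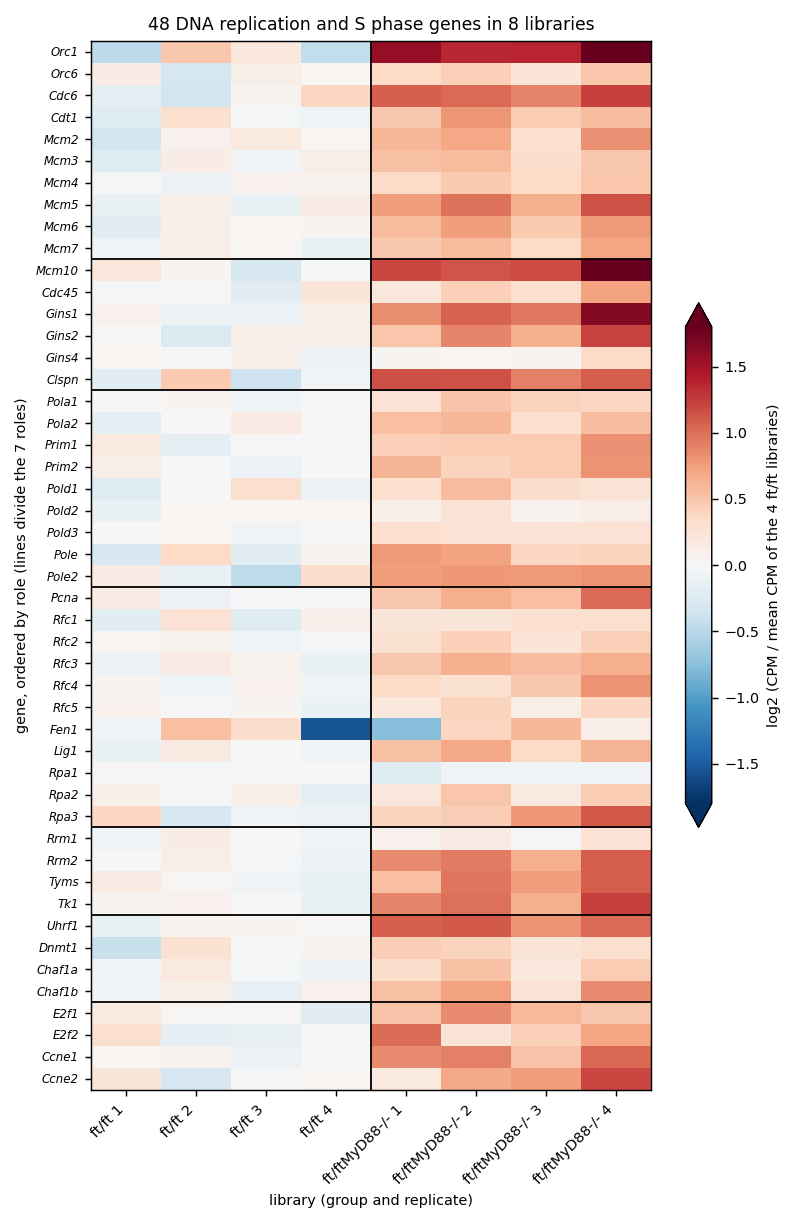
Level of each of the 48 genes (rows, grouped by role with lines between roles) in each of the 8 libraries (columns), as log2 of the CPM over the mean of the 4 ft/ft libraries on a colour scale. The 4 right columns are red for nearly all genes and deepest in ft/ftMyD88-/- replicate 4, with *Orc1* and *Mcm10* the strongest, while *Rpa1*, *Gins4* and *Rrm1* stay near white and *Fen1*, with 2 to 10 counts a library, varies without regard to group.

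A promoter feature that was not used to choose the genes was more frequent among them than among all tested genes. RefSeq promoter windows of GRCm38.p6, from 250 bases before to 50 after an annotated start, were found for 40 of the 48 genes. The E2F words TTTCCCGC, TTTCGCGC, TTTGCCGC and TTTGGCGC, read on both strands, occurred in a window of 17 of these 40 genes (42.5%) and of 503 of 12161 tested genes with a window (4.14%). Among 21 genes of a mitosis list 1 held such a word (4.76%), and 15 held the CHR word TTTGAA (71.4%), which 15% of the replication genes and 14.9% of tested genes held. The CCAAT box CCAAT was found for 62.5% of the replication genes and 41.9% of tested genes, and the GC box GGGCGG for 77.5% and 62.9%. Among the mitosis genes 81% held the CCAAT box and 81% the GC box, more than among the replication genes. The E2F words can overlap each other on opposite strands. Word matches are a description of letters and say nothing of binding in this skin.

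**Figure D2:**
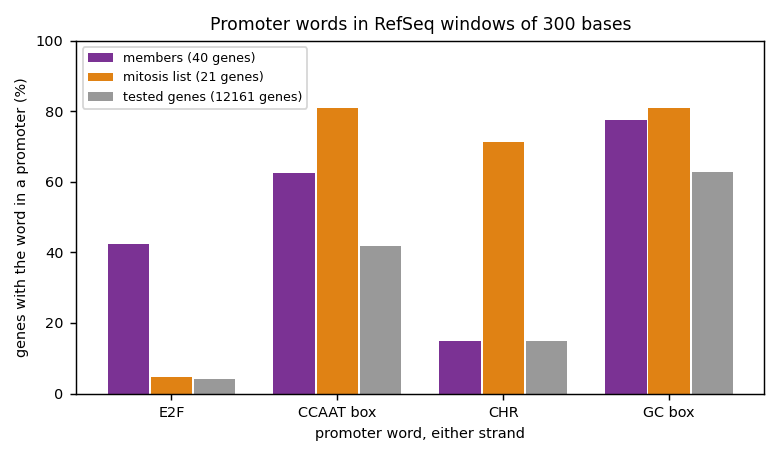
Share of genes (%, y axis) with at least 1 match of each promoter word on either strand (x axis) in RefSeq windows of 300 bases, for the 40 replication genes with a window, 21 mitosis genes and 12161 tested genes. E2F words stand out in the replication genes (42.5% against 4.14% of tested genes) and the CHR word in the mitosis genes (71.4%).

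The words of 4 of the 6 genes with a log2 fold change of at least 1 are shown first, each with 9 bases on either side, 5′ to 3′ on the strand of the gene and with the match in capitals. *Mcm10* held no match and *Gins1* had no window. Positions are counted from the RefSeq start of the window, and *Uhrf1* had 2 windows, with its match in 1. In the gene models of GENCODE M21 *Orc1*, *Cdc6* and *Uhrf1* start farther upstream (chr4:108579423, chr11:98907801 and chr17:56303321). Their matches thus lie inside those gene models. *Orc1* had its match 27 to 20 bases before the start (chr4:108579418-108579443, plus strand), *Cdc6* 138 to 131 bases before it (chr11:98908004-98908029, plus strand), *Clspn* 22 to 29 bases after it (chr4:126556992-126557017, plus strand) and *Uhrf1* 185 to 178 bases before it (chr17:56304119-56304144, plus strand).
Orc1: cggttagtgGCGCGAAAagttttctc
Cdc6: cggtggagaGCGGGAAAtcgcctggg
Clspn: cgcgtctggGCGCGAAAgctcgaact
Uhrf1: cgagtcgggTTTCGCGCgcccaggcg

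*Mcm5* and *Mcm6*, the helicase subunits with the largest fold changes, each held overlapping words on opposite strands, so that the capitals join into 12 bases. The stretches below run from 200 bases before the start to 42 bases before it for *Mcm5* (chr8:75109309-75109467, plus strand) and to the last base before it for *Mcm6* (chr1:128359706-128359905, minus strand), where another match follows nearer to the start. They also hold 1 and 2 CCAAT boxes.
Mcm5: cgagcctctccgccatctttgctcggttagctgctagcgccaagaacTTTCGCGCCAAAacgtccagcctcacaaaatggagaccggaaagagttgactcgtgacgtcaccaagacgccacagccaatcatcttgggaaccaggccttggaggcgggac
Mcm6: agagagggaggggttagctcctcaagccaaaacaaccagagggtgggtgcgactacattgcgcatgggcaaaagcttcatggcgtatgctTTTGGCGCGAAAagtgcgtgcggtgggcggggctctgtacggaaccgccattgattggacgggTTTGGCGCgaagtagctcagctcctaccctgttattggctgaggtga

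Genes of other roles held such words as well. *Pole2*, a polymerase epsilon subunit, had a match 11 to 18 bases after its start (chr12:69228164-69228189, minus strand), and *Rfc3*, a clamp loader subunit, had one 10 to 3 bases before and one 1 to 8 bases after its start (chr5:151651202-151651227 and chr5:151651192-151651217, minus strand). In GENCODE M21 *Rfc3* starts farther upstream, at chr5:151651242, so its matches lie inside that gene model.
Pole2: tcggcggtgGCGCCAAAtcgcgaaca
Rfc3, before the start: gtcgcacgcTTTCGCGCtcgcgggaa
Rfc3, after the start: ttcgcgctcGCGGGAAAactctactg

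Genes with and without a word overlapped widely in fold change. Of the 17 with a word 15 were called higher, with a median log2 fold change of 0.59 (0.27 to 1.54), and of the 23 without one 16 were, with a median of 0.50 (-0.096 to 1.35).

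All 10 licensing genes were higher in ft/ftMyD88-/- skin, with a median log2 fold change of 0.60. *Orc1*, the ORC subunit that comes and goes with the cell cycle in many cells, was at 0.600, 1.16, 0.948 and 0.613 CPM in ft/ft libraries 1 to 4 and at 2.45, 2.13, 2.14 and 3.05 CPM in the ft/ftMyD88-/- libraries. It was the most changed of the 48 genes (log2 fold change 1.54, SE 0.262, edgeR adjusted p = 0.00170) and also a low one, with 14 to 63 counts a library. *Cdc6*, the loader that joins ORC, was at 2.23, 2.00, 2.62 and 3.26 CPM in ft/ft and at 5.35, 5.11, 4.63 and 5.91 CPM in ft/ftMyD88-/- (log2 fold change 1.05, SE 0.184, edgeR adjusted p = 0.00204), about a doubling without overlap. *Cdt1*, the partner of CDC6 in loading, rose by a log2 fold change of 0.58.

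The helicase subunits rose together. All 6 of *Mcm2* to *Mcm7* were called, from 0.42 (*Mcm4*) through *Mcm3* (0.48), *Mcm7* (0.54), *Mcm2* (0.61) and *Mcm6* (0.64) to 0.89 (*Mcm5*). *Mcm2*, often used as a marker of cells able to divide, was at 23.1, 30.6, 32.6 and 29.6 CPM in ft/ft and at 43.8, 47.0, 35.2 and 51.2 CPM in ft/ftMyD88-/- (SE 0.132, edgeR adjusted p = 0.00605). Its groups were separate, with ft/ftMyD88-/- replicate 3 the closest to ft/ft. The *Mcm2* call ended without ft/ftMyD88-/- replicates 1 and 4 together (0.51, edgeR adjusted p = 0.0570). *Orc6*, a small ORC subunit, changed least of the licensing genes (10.7, 7.82, 10.4 and 9.89 CPM in ft/ft, and 12.4, 13.1, 11.5 and 13.7 CPM in ft/ftMyD88-/-; log2 fold change 0.39, SE 0.127, edgeR adjusted p = 0.0440). Its call ended when any of 6 single libraries was left out (ft/ft 2, 3 or 4, or ft/ftMyD88-/- 1, 2 or 4), with a log2 fold change of 0.30 to 0.42 and an edgeR adjusted p of 0.0623 to 0.102.

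**Figure D3:**
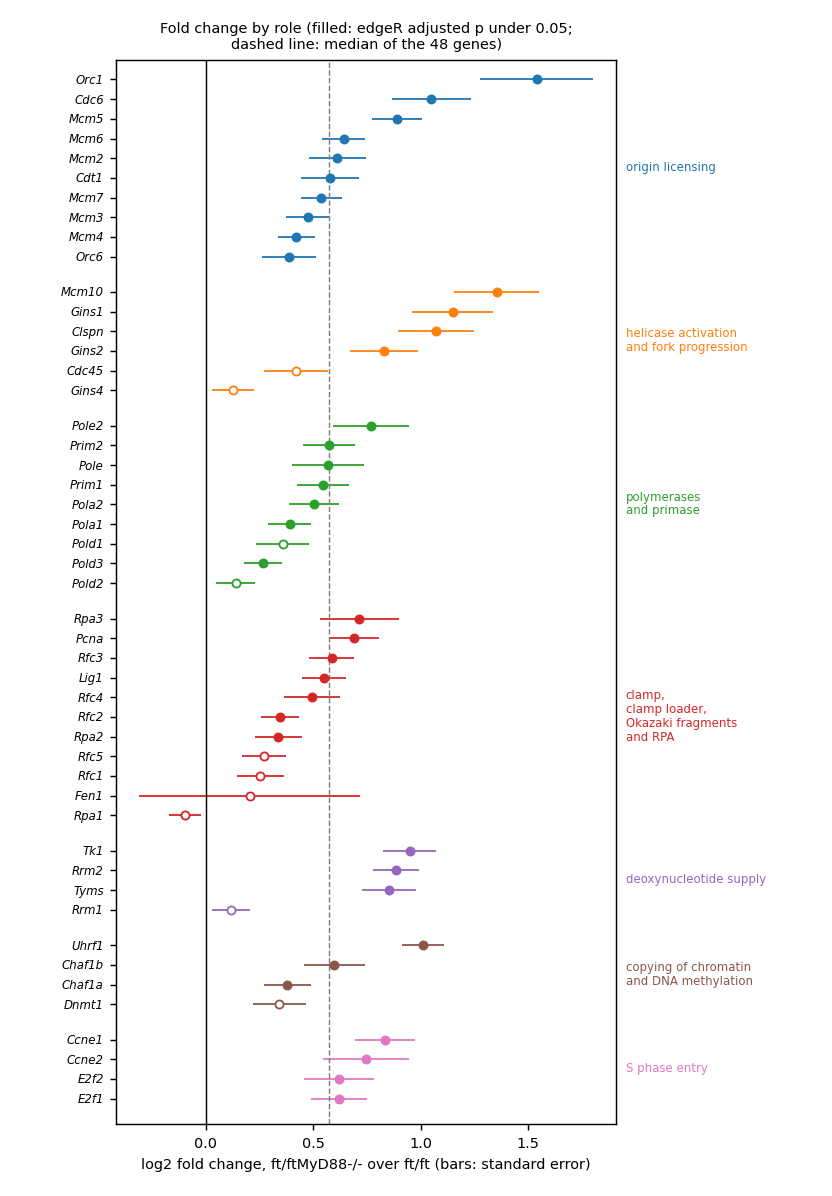
Log2 fold change of ft/ftMyD88-/- over ft/ft (x axis) for each of the 48 genes (y axis, by role), with bars for the standard error, filled points for an edgeR adjusted p under 0.05 and a dashed line at the median of the 48 genes (0.57). *Orc1* lies farthest right at 1.54, *Rpa1* is alone left of 0 (it moves to 0.082 with library size only), and each role spans both sides of the median except S phase entry, where all 4 genes lie above it.

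Helicase activation and fork progression had the highest median of the 7 roles, 0.95, with 4 of 6 genes called. *Mcm10*, a factor needed to start the active helicase, was at 2.91, 2.62, 2.06 and 2.49 CPM in ft/ft and at 5.78, 5.55, 5.68 and 9.02 CPM in ft/ftMyD88-/- (log2 fold change 1.35, SE 0.198, edgeR adjusted p = 0.000718). Even its lowest ft/ftMyD88-/- library stood 1.90 times above its highest ft/ft library, the widest gap of the 48 genes. *Gins1*, a subunit of the GINS complex, was at 3.86, 3.42, 3.40 and 3.91 CPM in ft/ft and at 6.49, 7.61, 7.01 and 11.5 CPM in ft/ftMyD88-/- (log2 fold change 1.15, SE 0.187, edgeR adjusted p = 0.00135). *Clspn*, the fork protein claspin that carries checkpoint signals to CHK1, rose by 1.07 and *Gins2* by 0.83.

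*Gins4*, in contrast, was at nearly the same level in both groups although its protein belongs to the same complex. It was at 27.2, 26.2, 28.3 and 24.8 CPM in ft/ft and at 27.6, 27.2, 27.7 and 33.8 CPM in ft/ftMyD88-/- (log2 fold change 0.13, SE 0.0988, edgeR adjusted p = 0.388), and only ft/ftMyD88-/- replicate 4 lay clearly above ft/ft. *Cdc45*, the third part of the active helicase, did not pass (log2 fold change 0.42, edgeR adjusted p = 0.0593). Its groups overlapped by a small margin, 5.97 to 7.97 CPM in ft/ft against 7.93 to 11.4 CPM in ft/ftMyD88-/-, and without ft/ftMyD88-/- replicate 1 it was called (0.49, edgeR adjusted p = 0.0424).

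Of 9 polymerase and primase genes 7 were called higher, with a median of 0.50. All 4 subunits of polymerase alpha and primase were, in a narrow range from *Pola1* (0.39) through *Pola2* (0.50) and *Prim1* (0.55) to *Prim2* (0.57). *Prim2*, the large primase subunit, was at 10.4, 9.31, 8.87 and 9.47 CPM in ft/ft and at 14.5, 12.5, 13.1 and 16.6 CPM in ft/ftMyD88-/- (SE 0.121, edgeR adjusted p = 0.00542). Both polymerase epsilon genes were higher. *Pole2*, its second subunit, was at 3.47, 2.84, 2.29 and 3.91 CPM in ft/ft and within 5.26 to 5.49 CPM in all 4 ft/ftMyD88-/- libraries (log2 fold change 0.77, SE 0.177, edgeR adjusted p = 0.00859), and *Pole*, the catalytic subunit, rose by 0.57. The *Pole* call ended without ft/ft 1, 3 or 4 or ft/ftMyD88-/- 1 or 2, at 0.48 to 0.59 and an edgeR adjusted p of 0.0606 to 0.0789.

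The polymerase delta genes had the smallest fold changes of the polymerases. *Pold2*, its accessory subunit, was at 22.9, 25.5, 25.5 and 25.6 CPM in ft/ft and at 26.8, 29.8, 26.1 and 27.0 CPM in ft/ftMyD88-/- (log2 fold change 0.14, SE 0.0891, edgeR adjusted p = 0.283), a small difference in which the groups still did not overlap. The catalytic subunit *Pold1* missed the threshold (0.36, edgeR adjusted p = 0.0563), although it was called without ft/ft replicate 3 (0.46, edgeR adjusted p = 0.0220). *Pold3* was called at 0.27 in all 8 libraries, and the call ended whichever library was left out (0.25 to 0.29, edgeR adjusted p of 0.0524 to 0.102).

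The sliding clamp, its loader, the enzymes that join Okazaki fragments and the single-strand binding protein RPA had the lowest median, 0.35, with 7 of 11 called. *Pcna*, the clamp, was at 88.9, 75.9, 80.7 and 79.9 CPM in ft/ft and at 114, 128, 119 and 165 CPM in ft/ftMyD88-/- (log2 fold change 0.69, SE 0.116, edgeR adjusted p = 0.00159), and its lowest ft/ftMyD88-/- library was 1.28 times its highest ft/ft library. The clamp loader RFC was called for 3 of 5 subunits, *Rfc3* (0.59), *Rfc4* (0.50) and *Rfc2* (0.35). *Rfc5* (0.27, edgeR adjusted p = 0.0719) and the large subunit *Rfc1* (0.25, edgeR adjusted p = 0.108) did not pass, though *Rfc1* did without ft/ft replicate 2 (0.35, edgeR adjusted p = 0.0246) and *Rfc5* without ft/ftMyD88-/- replicate 3 (0.34, edgeR adjusted p = 0.0373). *Rfc2* in turn lost its call without ft/ft replicate 4 (0.33, edgeR adjusted p = 0.0518). *Lig1*, the ligase that seals Okazaki fragments, rose by 0.55.

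Of the 3 subunits of RPA 2 were called. *Rpa3*, the smallest, was at 13.2, 8.33, 9.59 and 9.43 CPM in ft/ft and at 13.4, 13.8, 17.4 and 22.1 CPM in ft/ftMyD88-/- (log2 fold change 0.71, SE 0.183, edgeR adjusted p = 0.0152). *Rpa1*, the largest and a protein used in repair as well as replication, was at 75.1, 72.8, 75.1 and 72.6 CPM in ft/ft and at 63.3, 70.2, 71.7 and 71.5 CPM in ft/ftMyD88-/- (log2 fold change -0.096, SE 0.0762, edgeR adjusted p = 0.397), and its sign turned to 0.082 when library size alone was used. *Rpa2* lay between them at 0.34, a call that ended without any of 6 libraries (ft/ft 1, 2, 3 or 4, or ft/ftMyD88-/- 2 or 4; 0.28 to 0.37, edgeR adjusted p of 0.0510 to 0.130). *Fen1*, the flap endonuclease, had 2 to 10 counts a library, and no difference was detectable from these counts (log2 fold change 0.20, SE 0.513), and its sign turned to -0.095 without ft/ft replicate 4.

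Of the 4 genes of deoxynucleotide supply all but *Rrm1* were called, with a median of 0.87. *Tk1*, the S phase thymidine kinase, was at 15.8, 16.2, 15.3 and 14.1 CPM in ft/ft and at 28.2, 30.4, 24.2 and 36.0 CPM in ft/ftMyD88-/- (log2 fold change 0.95, SE 0.122, edgeR adjusted p = 0.000349). *Rrm2*, the subunit of ribonucleotide reductase made in S phase, was at 22.2, 23.9, 21.7 and 20.4 CPM in ft/ft and at 39.6, 42.0, 34.6 and 46.8 CPM in ft/ftMyD88-/- (log2 fold change 0.89, SE 0.105, edgeR adjusted p = 0.000217). *Tyms*, thymidylate synthase, rose by 0.85. *Rrm1*, the other subunit of the reductase and known to be present through the cell cycle, was at 70.1, 80.1, 73.5 and 69.4 CPM in ft/ft and at 77.1, 81.3, 72.4 and 87.7 CPM in ft/ftMyD88-/- (log2 fold change 0.12, SE 0.0876, edgeR adjusted p = 0.355), with overlapping groups.

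Genes that copy chromatin and DNA methylation gave the firmest single call. *Uhrf1*, which brings the maintenance methyltransferase to newly copied DNA, was at 17.1, 19.4, 19.2 and 18.9 CPM in ft/ft and at 39.4, 40.2, 32.7 and 37.8 CPM in ft/ftMyD88-/- (log2 fold change 1.01, SE 0.0969, edgeR adjusted p = 6.16e-05), the smallest adjusted p of the 48 genes. The methyltransferase itself, *Dnmt1*, was at 45.9, 73.2, 60.1 and 62.7 CPM in ft/ft and at 82.4, 79.5, 71.1 and 73.8 CPM in ft/ftMyD88-/- (log2 fold change 0.34, SE 0.124, edgeR adjusted p = 0.0637), and only ft/ft replicate 2 reached into the range of ft/ftMyD88-/-. Without that library *Dnmt1* was called (0.45, edgeR adjusted p = 0.0191). Of the chromatin assembly factor CAF-1, which places histones behind the fork, *Chaf1b* was at 7.63, 8.51, 7.08 and 8.28 CPM in ft/ft and at 11.3, 13.0, 9.39 and 14.1 CPM in ft/ftMyD88-/- (log2 fold change 0.60, SE 0.142, edgeR adjusted p = 0.0102). *Chaf1a* rose by 0.38, a call that ended without any of 5 libraries (ft/ft 1, 3 or 4, or ft/ftMyD88-/- 2 or 4; 0.33 to 0.37, edgeR adjusted p of 0.0558 to 0.0783).

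All 4 genes of S phase entry were higher. *Ccne1*, cyclin E1, which activates CDK2 at the start of S phase, was at 5.40, 5.49, 4.91 and 5.25 CPM in ft/ft and at 9.47, 9.85, 7.52 and 10.8 CPM in ft/ftMyD88-/- (log2 fold change 0.83, SE 0.139, edgeR adjusted p = 0.00157). *Ccne2*, cyclin E2, was at 6.30, 4.40, 5.41 and 5.52 CPM in ft/ft and at 6.13, 8.67, 9.12 and 12.4 CPM in ft/ftMyD88-/- (log2 fold change 0.74, SE 0.199, edgeR adjusted p = 0.0184). Its ft/ftMyD88-/- replicate 1 lay within ft/ft, and the call ended without ft/ftMyD88-/- replicate 4 (0.57, edgeR adjusted p = 0.0529). *E2f1*, an activating E2F factor, was at 8.53, 7.78, 7.64 and 6.67 CPM in ft/ft and at 11.0, 13.9, 11.5 and 10.7 CPM in ft/ftMyD88-/- (log2 fold change 0.62, SE 0.130, edgeR adjusted p = 0.00539). *E2f2*, another one, rose by 0.62 as well, but ft/ftMyD88-/- replicate 2 (24.7 CPM) lay below ft/ft replicate 1 (25.6 CPM), and the call ended without ft/ft replicate 3 (0.58, edgeR adjusted p = 0.0511) and without ft/ftMyD88-/- replicates 1 and 4 together (0.34, edgeR adjusted p = 0.134).

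Levels of different genes can be compared only per length. The length used was that of all exons of a gene, merged over its annotated transcripts. It can exceed that of any single transcript, so the order below depends on the annotation. *Rrm1*, for example, had 11.0 kilobases and came out at 6.65 CPM per kilobase in ft/ft and 7.23 in ft/ftMyD88-/-. Divided by the exon length of GENCODE M21, *Pcna* had the highest level of the 48 genes (33.9 CPM per kilobase in ft/ft and 54.7 in ft/ftMyD88-/-), followed in ft/ft by *Gins4* (19.7 and 21.5), *Rpa1* (13.2 and 12.4) and *Pold2* (13.1 and 14.5). The last 3 of these did not pass the test. Of the genes called with a log2 fold change of at least 1, low levels on this scale were measured for *Orc1* (0.239 and 0.703), *Mcm10* (0.328 and 0.846), *Cdc6* (0.483 and 1.00) and *Clspn* (0.680 and 1.44), whereas *Gins1* (2.41 and 5.37) and *Uhrf1* (4.38 and 8.81) were higher. The lowest level of the 48 was that of *Fen1* (0.0926 and 0.104), which did not pass the test. Of its exon bases 84.2% overlap other genes, so reads of *Fen1* may have gone uncounted and its true level is uncertain.

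Ratios of counts of a pair of subunits within a library do not depend on the scaling between libraries. Over 44 pairs within a complex, chosen with the fold changes known, the groups did not overlap for 13, each at the smallest p of a two-sided exact permutation test of 4 against 4 (p = 0.0286), or 0.0967 after Benjamini-Hochberg adjustment over the 44 pairs. No pair thus passed an adjusted p of 0.05. With that smallest p, none could pass unless many more pairs were separate, so the miss says little about any single pair. Pairs of a complex share genes, and each ratio was turned so that its mean log2 value was higher in ft/ftMyD88-/-. The ratio of *Rrm2* to *Rrm1* was 0.316, 0.298, 0.295 and 0.294 in ft/ft and 0.514, 0.517, 0.478 and 0.533 in ft/ftMyD88-/-. *Gins1* over *Gins4* was 0.142, 0.131, 0.120 and 0.158 in ft/ft and 0.235, 0.280, 0.253 and 0.339 in ft/ftMyD88-/-, and all 3 pairs of GINS subunits were separate. *Rpa3* over *Rpa1* was 0.114 to 0.175 in ft/ft against 0.196 to 0.309 in ft/ftMyD88-/-.

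In the MCM helicase 4 of 15 pairs were separate, and each of these held *Mcm5*, as in *Mcm5* over *Mcm4* (1.09 to 1.44 in ft/ft and 1.52 to 1.94 in ft/ftMyD88-/-). None of the 6 pairs within polymerase alpha and primase was separate. *Prim1* over *Pola2*, for example, was 1.27 to 1.82 in ft/ft against 1.30 to 1.72 in ft/ftMyD88-/-. The polymerase delta pairs were not separate either.

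**Figure D4:**
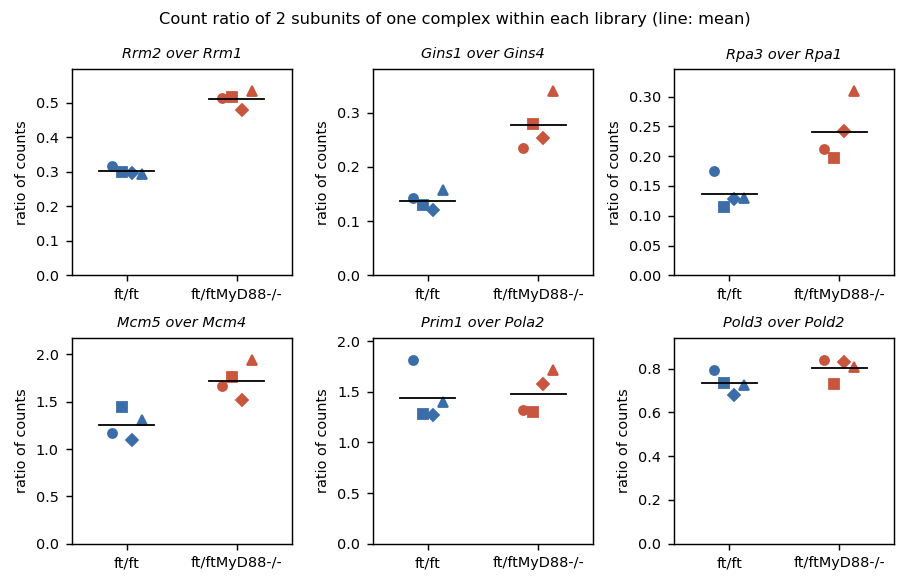
Ratio of the counts of a pair of subunits (y axis, from 0) in each library of ft/ft and ft/ftMyD88-/- (x axis; circle, square, diamond and triangle for replicates 1 to 4; line for the mean) for 6 pairs. *Rrm2* over *Rrm1* lies near 0.3 in ft/ft and near 0.5 in ft/ftMyD88-/-, and the groups are separate in every panel except *Prim1* over *Pola2* and *Pold3* over *Pold2*.

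Other genes of the pathway were taken from lists set by function. Of 53 further replication genes 25 were called higher (47.2%, against 10.9% of all genes tested) and 1 lower (1.89% against 12.3%), with a median log2 fold change of 0.40. The largest were *Ticrr* (1.24, edgeR adjusted p = 0.000856), the treslin that brings CDC45 to origins, and *Gmnn* (1.13, edgeR adjusted p = 0.000411), geminin, the inhibitor of CDT1. The only lower gene was *Tk2*, the thymidine kinase of mitochondria (-0.30, edgeR adjusted p = 0.0219), a call that ended without ft/ft replicate 4, without ft/ftMyD88-/- replicate 2 or 3, without ft/ftMyD88-/- replicates 1 and 4 together, with the replicate block and with library size only. Of the ORC subunits outside the 48 genes *Orc2* (0.38) and *Orc4* (0.56) were called, and *Orc3* (-0.20) and *Orc5* (0.10) were not. The fourth GINS subunit, *Gins3*, did not pass either (0.40, edgeR adjusted p = 0.158).

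Of 20 genes of E2F, retinoblastoma and G1/S control 10 were higher and 0 lower (3 higher without ft/ftMyD88-/- libraries 1 and 4, where 1221 of all genes in place of 2239 were called higher), led by *Skp2* (1.08, edgeR adjusted p = 0.000704), the ubiquitin ligase subunit that removes p27, and *E2f7* (0.87, edgeR adjusted p = 0.00949), a repressor E2F. The D-type cyclins *Ccnd1* (0.13), *Ccnd2* (-0.096) and *Ccnd3* (0.033) did not pass. Of 7 inhibitors of cyclin-dependent kinases 2 were lower (28.6%, against 12.3% of all genes tested), *Cdkn1c* (p57, -1.10, edgeR adjusted p = 0.00284) and *Cdkn2b* (p15, -0.33, edgeR adjusted p = 0.0430), and 0 were higher, or 1 at an unadjusted p under 0.05, *Cdkn2a* with 0 to 5 counts in ft/ft and 6 to 11 in ft/ftMyD88-/-. Leaving out ft/ft replicate 1, 2 or 3 or ft/ftMyD88-/- replicate 2, 3 or 4 left 1 lower, and without ft/ft replicate 1 the test called 1 inhibitor higher. Among 11 genes of the S phase checkpoint *Chek1* alone was higher (0.90, edgeR adjusted p = 0.00147), a share of 9.09% that is near the 10.9% of all genes tested.

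Genes of mitosis were higher too, with 21 of 25 higher (84%, against 10.9% of all genes tested) and a median of 0.66. *Mki67*, the proliferation marker Ki-67, was at 47.9 ± 23.6 CPM in ft/ft and at 110 ± 15.6 CPM in ft/ftMyD88-/- (SD, 4 libraries each), and *Bub1*, a spindle checkpoint kinase, rose by 1.01. Summed over the list, the level was 396 to 559 CPM in ft/ft against 631 to 815 CPM in ft/ftMyD88-/-. Replicate 2 stood apart within ft/ft, at 559 CPM against 396 to 452 CPM in the others, and its *Mki67* was at 80.9 CPM. Without ft/ft replicate 4 the test called 13 of the 25, with 1462 of all genes higher in place of 2239, and without ft/ftMyD88-/- libraries 1 and 4 together it called 10, with 1221 of all genes higher.

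Markers of the cell types that a biopsy holds differed between the groups too. The 7 markers of basal keratinocytes, among them *Krt5* and *Krt14*, summed to 14024 to 17175 CPM in ft/ft and 9837 to 12058 CPM in ft/ftMyD88-/-, with 5 of 7 lower and 0 higher. *Krt14* (log2 fold change 0.049, edgeR adjusted p = 0.839) and *Trp63* (-0.18, edgeR adjusted p = 0.119) did not pass. Of all genes tested 12.3% were called lower and 10.9% higher. The 8 T cell markers were all higher, at 18.5 to 23.0 CPM in ft/ft and 32.0 to 43.5 CPM in ft/ftMyD88-/- in sum. Of the 10 markers of the anagen hair matrix and shaft 3 were higher, or 9 at an unadjusted p under 0.05, for which no share of all genes is given. Their sum, 992 to 1519 CPM in ft/ft, was 8327, 1251, 1990 and 4792 CPM in ft/ftMyD88-/- libraries 1 to 4. This sum was highest in libraries 1 and 4, and in library 3 it also lay above every ft/ft library. The summed level of the replication genes was 1300, 1391, 1240 and 1499 CPM in libraries 1 to 4. Without ft/ftMyD88-/- libraries 1 and 4, an alternative chosen after seeing the data, 26 of the 48 genes were called higher, with a median of 0.51. Of all 19940 genes tested in that fit 1221 were called higher. Among the calls that ended were those of *Mcm2*, *Pola2*, *Prim2*, *Rfc4* and *Chaf1b*, which had held with each single library left out. Library 3 remained in that fit, so the hair genes were not made equal between the groups. A link between hair and replication genes was not tested.

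The remaining marker lists differed in direction. Of the 7 hyperproliferative keratinocyte markers 0 passed in edgeR (2791 to 3843 CPM in ft/ft and 3613 to 6413 CPM in ft/ftMyD88-/- in sum). At an unadjusted p under 0.05, for which no share of all genes is given, 4 were higher. Differentiated keratinocyte markers were lower for 3 of 7 (16976 to 22039 CPM and 12244 to 15325 CPM), sebocyte markers for 4 of 7 (18615 to 21428 CPM and 10514 to 16167 CPM), fibroblast markers for 3 of 7 (14283 to 29382 CPM and 7198 to 10676 CPM) and skeletal muscle markers for 8 of 10 (9660 to 13217 CPM and 3692 to 7044 CPM). The fibroblast markers called were the collagens *Col1a1*, *Col1a2* and *Col3a1*, which made up most of that sum in each library. *Dcn* (-0.40), *Lum* (0.087), *Pdgfra* (0.31) and *Dpt* (0.39) did not pass. Macrophage and monocyte markers were higher for 2 of 6 (409 to 505 CPM and 580 to 847 CPM), *Lyz2* and *Ccr2*. *Lyz2* made up most of that sum in each library, and *Cd14* (0.71), *Cd68* (-0.11), *Csf1r* (-0.21) and *Adgre1* (-0.030) did not pass. Neutrophil markers were higher for 1 of 4 (21.5 to 250 CPM and 399 to 958 CPM), with 21.5 to 36.1 CPM in ft/ft outside replicate 2. *Retnlg* and *Ly6g* were listed too but are not in the count table. Of the B and plasma cell markers 1 of 6 was higher (1.20 to 5.13 CPM and 5.51 to 32.3 CPM), or 16.7% against 10.9% of all genes tested. The neutrophil and hyperproliferative keratinocyte lists share *S100a8* and *S100a9*, which made up most of the neutrophil sum in the ft/ftMyD88-/- libraries and did not pass (edgeR adjusted p = 0.126 and 0.123), and the neutrophil marker called was *Csf3r*. The B and plasma cell marker called was *Jchain*, which made up most of the sum of its list in each ft/ftMyD88-/- library, and the others did not pass. Of these, *Ms4a1* had 0 counts in some libraries of each group. Leaving muscle, other sarcomere and mitochondrially encoded genes out of the scaling gave 38 higher of the 48 and a median of 0.57. The part of each cell type in the change of the replication genes was not tested.

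**Figure D5:**
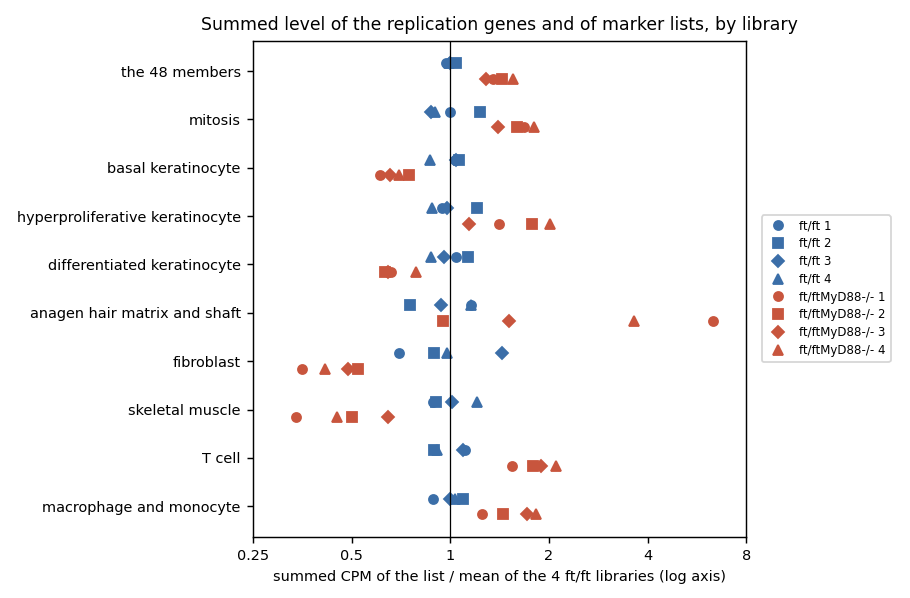
Summed CPM of the 48 replication genes and of the mitosis and marker lists (y axis) in each library over the mean of the 4 ft/ft libraries (x axis, log scale), blue for ft/ft and red for ft/ftMyD88-/-, with symbols for replicates 1 to 4. The replication genes lie in a narrow band above 1 in all 4 ft/ftMyD88-/- libraries. The hair genes spread from near 1 in replicate 2 to over 6 in replicate 1 of ft/ftMyD88-/-.

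Some of the 48 genes share exons or sequence with others, and their reads may have been counted for another gene or not at all. In GENCODE M21, 84.2% of the exon bases of *Fen1* (chr19:10199132-10204169) overlap exons of *Gm10143* or *Tmem258*, 67.3% of those of *Gins2* overlap *Gse1* and 52.5% of those of *Chaf1a* overlap *Ubxn6*. Of the 50-base stretches of *Mcm7* 23.3% and of *Pcna* (chr2:132249162-132253314) 19.1% occur in another gene, for *Pcna* in its copy *Pcna-ps2*. *Uhrf1* shares 15.4% of its 50-base stretches with other genes, among them *Gm5648*, and 10.8% of the exon bases of *Orc1* overlap *Gm12743*. *Rfc2*, *Rfc4*, *Rfc5* and *Ccne2* also passed 10% on one measure or both. The values of all these genes are uncertain to that extent. Among the 37 genes with under 10% on both measures 29 were called higher, with a median log2 fold change of 0.57, and among the other 11, 9 were.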

How the data were processed

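The deposited table holds raw counts per gene. By the methods of the study, the authors aligned single-end reads of polyA-selected TruSeq libraries to GRCm38.p6 (HISAT and tophat2) and counted with default HTSeq. The labels instead name Cell Ranger and a fixed-tissue protocol, and versions and strand setting are not given in the sources used here. Columns were matched by library name, with 0 columns unused. Genes with a summed count of at least 10 (20454) entered edgeR 4.0.16 under R 4.3.3 (glmQLFit, robust; glmQLFTest, two-sided; TMM; no covariate), with Benjamini-Hochberg adjustment at 0.05 over all genes tested. The biological coefficient of variation was 0.182. P-values measure the spread between 4 libraries a group. Replicate pairs differed beyond counting noise (lowest chi-square per degree of freedom 16.3), so no library was a second sequencing of another; a second preparation from the same RNA would not be seen this way. The scripts were tested on simulated data. Alternatives were other scalings, DESeq2 1.42.0, limma 3.58.1 (voom), other filters and thresholds, a replicate block and each library left out. The 48 genes, the lists and the tests were chosen with earlier results of these data known. Per-library values are given for the 2 members with the largest and the 1 with the smallest absolute log2 fold change of each role, and for *Pcna*, *Mcm2*, *Rrm2* and *E2f1*. Of each pathway list the 2 largest changes past the threshold are named, and further genes were chosen after their values were seen. Promoter sequences are from RefSeq (GRCm38.p6). The values of 1 marker gene are not reported here.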

Additional observations from a re-analysis of the deposited data

Results flagged for a closer look

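For each of the 48 genes in each group, the highest or lowest of the 4 libraries was compared with the other 3 by Dixon's test. Of the 96 groups of 4 values 5 had a library apart from the others, and chance gives about 1 in 20 groups. In ft/ftMyD88-/-, replicate 4 was high for *Mcm10* (9.02 CPM, others 5.55 to 5.78), *Gins4* (33.8 CPM, others 27.2 to 27.7) and *Prim1* (25.8 CPM, others 19.6 to 20.1), and replicate 1 was high for *Pold3* (22.5 CPM, others 21.7 to 21.8). In ft/ft, replicate 1 was low for *Pold2* (22.9 CPM, others 25.5 to 25.6). Without ft/ftMyD88-/- replicate 4 *Mcm10* and *Prim1* were still called higher.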

How the results depend on the processing

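The number of replication genes called higher was 38 and ran from 32 to 38 with each library left out, from 35 to 46 under the other scalings, tools, filters and the replicate block, and was 26 at an adjusted p under 0.01 and 6 with a log2 fold change of at least 1. None was called lower under any of these, in edgeR, DESeq2 or limma voom. Of the 38 genes 30 kept the call with every single library left out, and 8 lost it at least once (edgeR adjusted p up to 0.130). The median was 0.57, 0.52 to 0.62 with a library left out, and 0.75 with library size only, where the median of all genes was 0.19. *Rpa1* reversed to 0.082 with library size only and *Fen1*, at -0.095 to 0.48 with a library left out, to -0.095 without ft/ft replicate 4. With 4 libraries a group and small fold changes, a gene that missed the threshold is not shown to be unchanged.

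For the pathway lists, library size only gave 39 further replication genes higher and 0 lower, 2 CDK inhibitors higher and 1 lower, and 5 checkpoint genes higher. DESeq2 gave 2 further replication genes lower and 1 CDK inhibitor higher, filterByExpr 2 further replication genes lower, limma voom 1 CDK inhibitor higher and RLE 1 lower. An adjusted p under 0.01 gave 15 further replication genes higher and 0 lower, 1 CDK inhibitor lower and 13 mitosis genes higher. A log2 fold change of at least 1 gave 6 and 0 further replication genes, 1 E2F, Rb and G1/S gene, 1 CDK inhibitor lower, 0 checkpoint genes and 2 mitosis genes. With each library left out, 0 to 1 further replication genes and 1 to 3 CDK inhibitors were lower, 0 to 1 CDK inhibitors higher and 13 to 23 mitosis genes higher. Leaving out ft/ftMyD88-/- replicates 1 and 4 together, an alternative chosen after seeing the data, gave 0 further replication genes lower, 3 E2F, Rb and G1/S genes and 10 mitosis genes higher. Fewer libraries were tested in these. For the others the cause was not tested.

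Replicate numbers 1 to 4 are shared by both groups but do not pair the libraries, since same-numbered libraries deviated with correlations of -0.146 to 0.0251. With the replicate number as a block, 35 of the 48 genes were called higher (*Orc6*, *Pold3* and *Rpa2* were lost), 0 further replication genes lower and 1 CDK inhibitor lower.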
